A study of Homo sapiens with 4 samples.

Results

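The genes described here are 10 enzymes or enzyme partners of the eicosanoid pathway, namely ALOX5, ALOX5AP, ALOX12, ALOX15, ALOX15B, LTC4S, LTA4H, PTGS1, PTGS2 and HPGDS. They were picked by symbol, and every gene probe carrying one of these symbols was taken, which gave 14 of the 58185 probes and 10 of the 43311 gene names used. The set was drawn up with results of these arrays known, and ALOX12 had been singled out by the study itself from these arrays, so the values below are descriptions. RNA came from MDS-L, an established human cell line derived from a myelodysplastic syndrome, and from MDS-L/CDA, an AZA-resistant derivative made by transducing CDA, the deaminase that inactivates cytidine analogues. Each line received 0.1% DMSO as vehicle or 1 μM AZA (5-azacytidine, a cytidine analogue that blocks DNA methylation) for 72 h, and the medium of both lines held 10% serum, IL-3 (20 ng/mL) and 2-mercaptoethanol (50 μM). There was 1 array per condition, 4 in all, on 1 slide. No replicate existed, so AZA was not tested within a line nor the lines against each other, and a cell line sampled once stands for that culture only. A test of AZA over both lines together, with the lines as the replicates, was not made.

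In 2 of the 4 samples the treatment field contradicted the other labels: it gave vehicle for the AZA-treated MDS-L sample and AZA for the vehicle-treated MDS-L/CDA sample. Title, description and source name gave one and the same group for every sample and were followed, although the titles of the AZA samples write the dose as 1 mM. The CDA probe, 627 bases into its transcript, stayed near background on all arrays, MDS-L/CDA included, and the scanner software passed it on none, with scaled signals of 0.105, 0.0943, 0.110 and 0.146 in the order MDS-L vehicle, MDS-L AZA, MDS-L/CDA vehicle and MDS-L/CDA AZA. Whether the transduced sequence contains the stretch this probe reads was not given in the sources used here, so the probe does not check the label of the line. Of 8 markers of progenitors and myeloid blasts, 7 were well above background in MDS-L and 6 in MDS-L/CDA with either treatment, and MPO was below it throughout.

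Eicosanoids are signalling lipids made from arachidonic acid. Lipoxygenases (the ALOX enzymes) add oxygen to it at different carbons; 5-lipoxygenase, encoded by ALOX5, works with its activating protein ALOX5AP to make leukotriene A4, which LTA4H turns into leukotriene B4 and LTC4S into leukotriene C4. Cyclooxygenases (PTGS1 and PTGS2) make prostaglandin H2, from which HPGDS forms prostaglandin D2. In blood, leukotriene C4 and prostaglandin D2 are known as products of mast cells and eosinophils or basophils, and 12-lipoxygenase, encoded by ALOX12, as an enzyme of platelets.

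The sequences behind the findings below are of 2 kinds. The first are the array probes, 60 bases long, of the 3 genes that were at least 2-fold higher with AZA in MDS-L; for ALOX12 its first 30 bases are given. Positions are hg19 from the array files. The ALOX12 probe lies at chr17:6913910-6913969 2212 bases into its transcript, the ALOX5AP probe at chr13:31338155-31338214, and the LTC4S probe spans 290 bases of genome at chr5:179222983-179223272, more than its own length.
ALOX12: ctgcaaagactagatccttttttacgcttt
ALOX5AP: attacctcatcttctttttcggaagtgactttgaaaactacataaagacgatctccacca
LTC4S: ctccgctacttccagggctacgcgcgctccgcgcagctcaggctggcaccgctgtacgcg

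The second kind are promoters, shown because DNA methylation, which AZA blocks, falls on CpG dinucleotides. Methylation itself was not measured on these arrays. The RefSeq table used here (GRCh38.p14) matched 7 of the 10 genes; ALOX5, ALOX15 and ALOX15B had no entry. The 250 bases before the start of ALOX12, ALOX5AP, LTC4S and LTA4H follow, 5′ to 3′, with each CG in capitals (CG reads the same on both strands).
ALOX12, chr17:6995799-6996048, plus strand: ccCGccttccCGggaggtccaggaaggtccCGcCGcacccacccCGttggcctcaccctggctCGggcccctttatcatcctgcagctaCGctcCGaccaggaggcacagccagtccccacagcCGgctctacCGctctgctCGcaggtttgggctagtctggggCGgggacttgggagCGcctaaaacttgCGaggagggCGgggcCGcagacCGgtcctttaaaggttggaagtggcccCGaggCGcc
ALOX5AP, chr13:30713235-30713484, plus strand: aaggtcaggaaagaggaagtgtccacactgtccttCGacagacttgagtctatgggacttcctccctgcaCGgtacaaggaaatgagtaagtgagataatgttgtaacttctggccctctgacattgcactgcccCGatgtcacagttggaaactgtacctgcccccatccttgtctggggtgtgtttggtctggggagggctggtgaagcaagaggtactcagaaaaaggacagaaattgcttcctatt
LTC4S, chr5:179793736-179793985, plus strand: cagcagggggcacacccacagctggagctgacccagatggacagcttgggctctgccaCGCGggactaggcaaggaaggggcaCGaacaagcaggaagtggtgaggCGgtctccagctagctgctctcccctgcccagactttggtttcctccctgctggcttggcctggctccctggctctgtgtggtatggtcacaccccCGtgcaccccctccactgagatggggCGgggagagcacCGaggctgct
LTA4H, chr12:96035588-96035837, minus strand: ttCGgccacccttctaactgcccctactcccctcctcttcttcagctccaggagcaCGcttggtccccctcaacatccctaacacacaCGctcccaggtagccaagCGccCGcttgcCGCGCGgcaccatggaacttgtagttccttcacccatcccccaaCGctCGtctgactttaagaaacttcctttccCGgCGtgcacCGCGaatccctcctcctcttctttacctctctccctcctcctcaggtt

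The ALOX12 promoter held 19 CpG and had a GC content of 68.4%, and the ALOX5AP promoter held 3 CpG at a GC content of 49.6%. LTC4S had 7, LTA4H 14, PTGS2 9, HPGDS 4, and the 2 starts of PTGS1 had 4 and 7. Over all 35116 promoters in the table the median was 11 CpG, with quartiles of 3 and 23. As many CpG as in ALOX12 were present in 34.6% of promoters, and as many as in ALOX5AP in 77.1%. The 3 genes higher with AZA in MDS-L therefore lay on both sides of the median. ALOX12 had the highest count of the 7 genes.

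**Figure D1:**
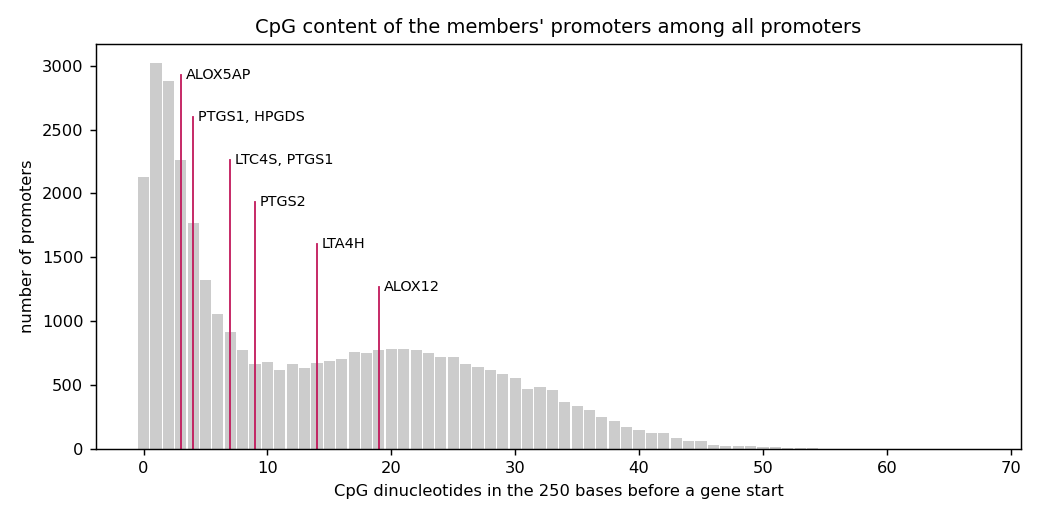
Number of promoters (vertical axis) by the number of CpG dinucleotides in the 250 bases before the gene start (horizontal axis), over 35116 RefSeq promoters (grey bars); red lines mark the 7 genes with an entry, PTGS1 at its 2 starts. ALOX5AP lies at 3, among the common low counts, and ALOX12 at 19, above the median of 11.

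Signals below are scaled signals: the processed signal of a spot divided by the 75th percentile of its array, so that 1 means the brightness that 75% of probes stayed under. A scaled signal compares 1 probe between arrays and not 1 gene with another. The 75th percentile lay between 37.3 and 52.9 signal units, between 32.6% and 36.5% of probes were well above background by the scanner software, and the lowest signal well above background was 0.190, 0.190, 0.272 and 0.296 on the scaled scale, in the array order above. Probes spotted several times on an array had a median SD between their spots of 0.14 to 0.28 (log2) at scaled signals of 1 to 10, and of 0.11 to 0.19 above 10. For a ratio of 2 arrays this amounts to an SD of 0.23 in MDS-L and 0.35 in MDS-L/CDA at scaled signals of 1 to 10 (log2), and of 0.17 and 0.24 above 10. It covers spotting and scanning only, not the difference between cultures. A gene was counted as higher or lower where its AZA/vehicle ratio, or the bound on that ratio where 1 array was not well above background, reached 2-fold, and genes well above background on neither array of a pair have no ratio.

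ALOX5 and ALOX15 gave no measurable signal on any array. The scaled signals of their 4 probes lay between 0.0501 and 0.132, under the lowest signal well above background of each array. The other 8 genes were well above background on at least 1 array, and 6 of them, ALOX5AP, ALOX15B, LTC4S, LTA4H, PTGS1 and HPGDS, on all 4. The activating protein and the enzymes LTA4H and LTC4S downstream of 5-lipoxygenase were thus measured in both lines without a signal for 5-lipoxygenase itself.

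**Figure D2:**
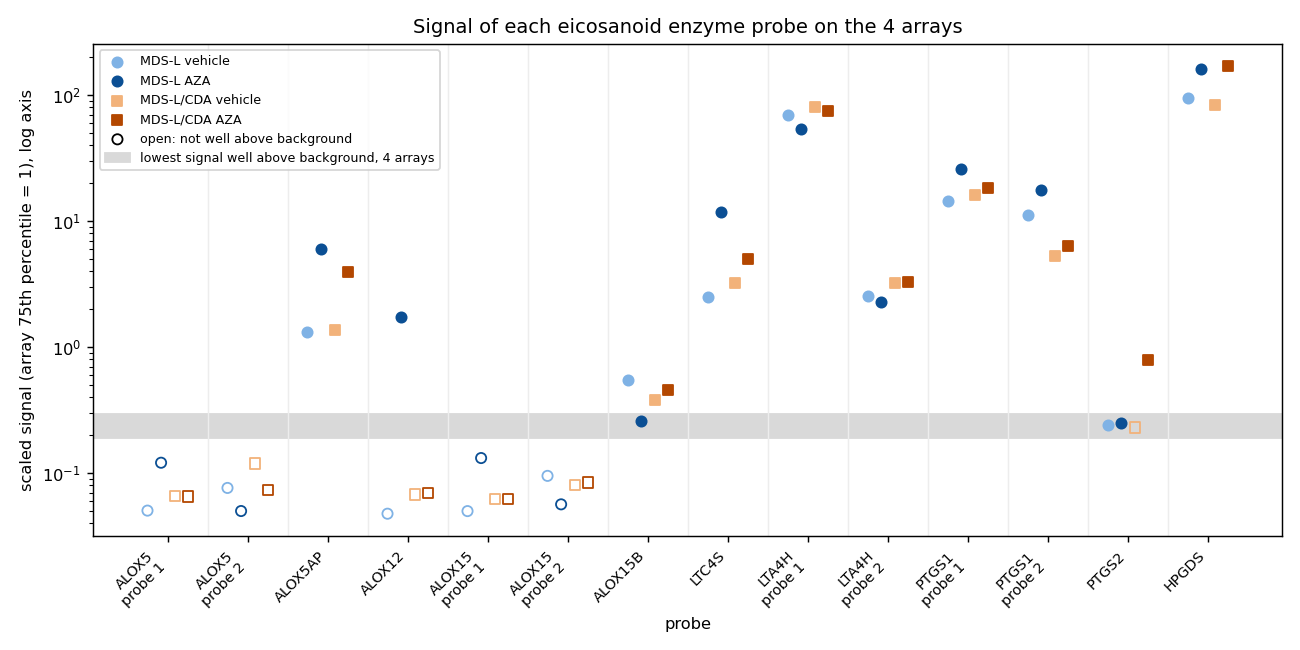
Scaled signal (log axis; 75th percentile of the array = 1) of the 14 probes on the 4 arrays; filled symbols are well above background and open symbols are not, and the grey band spans the lowest signals well above background, 0.190 to 0.296. ALOX12 stands at 1.73 on the MDS-L AZA array and under the band on the other 3, while ALOX5AP is higher with AZA in both lines.

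AZA/vehicle in MDS-L asks which of these genes changed in the AZA-sensitive line. Of the 8 genes with a ratio or bound, 3 were at least 2-fold higher (ALOX12, ALOX5AP and LTC4S) and 1 at least 2-fold lower (ALOX15B). Over all 17172 genes with a ratio or bound, 6.73% were at least 2-fold higher, 6.03% at least 2-fold lower and 12.8% either; the 10 genes were chosen with this comparison known, so nothing follows from their larger share. Their median log2 ratio was 0.80, against -0.13 over all genes. In MDS-L/CDA, which asks the same of the resistant line, 3 of 7 genes were at least 2-fold higher (ALOX5AP, HPGDS and PTGS2) and none lower, where 2.53% of 15393 genes were higher, 3.07% lower and 5.59% either. The median log2 ratio was 0.63, against 0.02 over all genes. With the normexp background model none of the 3 reached 2-fold.

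Among the lipoxygenases, ALOX12 was seen on a single array. Its scaled signal was 0.0477 in MDS-L with vehicle, 1.73 in MDS-L with AZA, 0.0679 in MDS-L/CDA with vehicle and 0.0700 in MDS-L/CDA with AZA, and only the second was well above background. Against the lowest signal well above background on the vehicle array, ALOX12 was at least 9.13-fold higher with AZA in MDS-L. This bound depends on the processing: over 6 other normalizations it lay between 2.16 (normexp background model) and 10.4, and stood at 6.27 after median scaling. In MDS-L/CDA no ratio can be given, and ALOX12 was not detectable there with or without AZA at this brightness.

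Other genes were detected in the same way. Well above background on the MDS-L AZA array alone were 1065 genes, 2.46% of the 43311. The median of their bounds was 1.62-fold, and 354 reached 2-fold, ALOX12 among them.

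The genes around ALOX12 varied in their ratios. In a window of 100 kb on each side of the gene, chosen after the values were seen, there were 15 other probes, of which 8 were well above background on at least 1 array. The antisense gene ALOX12-AS1 had 2 probes well above background on all arrays, with AZA/vehicle ratios of 0.964 and 1.02 in MDS-L. BCL6B, a transcriptional repressor, and ASGR2, a subunit of the asialoglycoprotein receptor, were well above background on the MDS-L AZA array alone, as ALOX12 was, and were at least 3.12-fold and at least 1.36-fold higher. Among neighbours measured on all 4 arrays, AF161372 had a ratio of 1.59 in MDS-L and C17orf49 of 1.49, and none was 2-fold lower. Among 9 probes of other genes with ALOX in their name, pseudogenes and antisense or long noncoding RNAs included, 3 were well above background on at least 1 array, and ALOXE3 and ALOX12B, which act in skin, were not.

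ALOX15B, a 15-lipoxygenase, was dim on all 4 arrays. Its scaled signal was 0.547 with vehicle and 0.260 with AZA in MDS-L, and 0.382 with vehicle and 0.461 with AZA in MDS-L/CDA. The AZA/vehicle ratio was 0.476 in MDS-L and 1.21 in MDS-L/CDA. At these brightnesses the call of 2-fold lower in MDS-L depends on the processing: the log2 ratio, -1.07 here, was -0.89 with the percentile taken over detected probes, just short of 2-fold, and -0.28 with the normexp background model.

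In the leukotriene branch, ALOX5AP was higher with AZA in both lines. Its scaled signal was 1.33 with vehicle and 5.98 with AZA in MDS-L, and 1.37 with vehicle and 3.98 with AZA in MDS-L/CDA. The AZA/vehicle ratio was 4.50 in MDS-L and 2.90 in MDS-L/CDA. Both AZA arrays were above both vehicle arrays, and the vehicle arrays differed by a ratio of 1.03 between the lines. In MDS-L/CDA 0.559% of genes had a ratio or bound at least as high, and in MDS-L 1.70%.

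LTC4S, leukotriene C4 synthase, had a scaled signal of 2.53 with vehicle and 11.7 with AZA in MDS-L, and of 3.21 with vehicle and 4.98 with AZA in MDS-L/CDA. The ratio was 4.65 in MDS-L and 1.55 in MDS-L/CDA. The ratio in MDS-L was thus 2.995 times that in MDS-L/CDA, a difference of 1.58 on the log2 scale; for ALOX5AP it was 1.55 times and 0.63. Neither difference could be tested.

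LTA4H, which makes leukotriene B4, was bright and moved little. Its probe counted for the gene read 69.4 with vehicle and 54.3 with AZA in MDS-L, and 80.6 and 75.2 in MDS-L/CDA, ratios of 0.782 and 0.933. A second, dimmer probe for another transcript gave 0.893 and 1.03. The leukotriene B4 branch and the leukotriene C4 branch of the enzyme set therefore differed in MDS-L by the ratios 0.782 and 4.65.

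Among the cyclooxygenases, PTGS1 was higher with AZA in MDS-L by less than 2-fold. The probe counted for the gene, 2108 bases into the transcript, read 14.4 with vehicle and 25.8 with AZA in MDS-L, and 16.0 and 18.3 in MDS-L/CDA. The probe 4592 bases into the same transcript read 11.2 and 17.6 in MDS-L, and 5.34 and 6.32 in MDS-L/CDA. AZA/vehicle ratios of the 2 probes were alike, 1.79 and 1.57 in MDS-L and 1.14 and 1.18 in MDS-L/CDA. Between the lines the probes disagreed: MDS-L/CDA over MDS-L was 1.11 with vehicle and 0.709 with AZA at the first probe, and 0.477 and 0.359 at the second, nearer the end of the transcript.

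PTGS2, the inducible cyclooxygenase, was close to the limit of measurement on 3 arrays. Its scaled signal was 0.240 with vehicle and 0.249 with AZA in MDS-L, a ratio of 1.03. In MDS-L/CDA it was 0.231 with vehicle, not well above background, and 0.785 with AZA, at least 2.88-fold higher. With the normexp background model the MDS-L/CDA value fell to 1.35-fold.

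HPGDS, the prostaglandin D2 synthase of blood cells, had scaled signals of 95.5 with vehicle and 161 with AZA in MDS-L, and of 83.0 with vehicle and 169 with AZA in MDS-L/CDA. The ratio was 1.69 in MDS-L and 2.04 in MDS-L/CDA, on either side of the 2-fold limit though the log2 ratios differed by -0.27 (MDS-L minus MDS-L/CDA). Both AZA arrays were above both vehicle arrays.

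**Figure D3:**
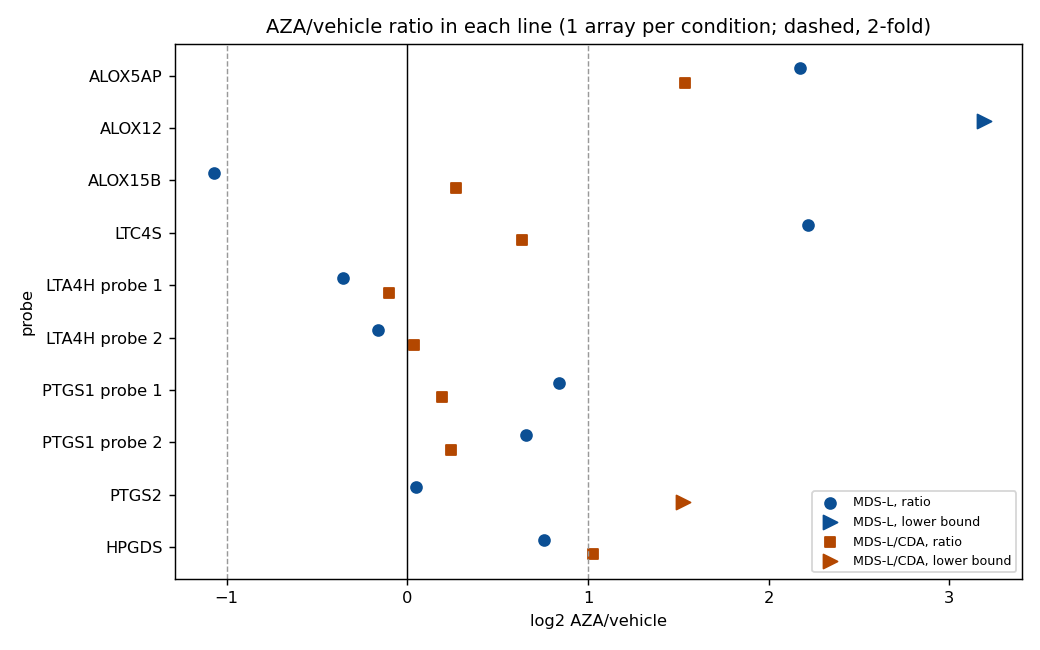
AZA/vehicle ratio (log2, horizontal axis) of the 10 probes with a value in MDS-L (blue circles) and MDS-L/CDA (orange squares); triangles are lower bounds and dashed lines mark 2-fold. ALOX5AP lies beyond 2-fold in both lines (2.17 and 1.54), LTC4S in MDS-L alone (2.22 against 0.63), and ALOX15B falls below 0 in MDS-L (-1.07) and above it in MDS-L/CDA (0.27).

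The lines were next compared with each other, which reuses the same 4 arrays. With vehicle, 0 of 7 genes differed at least 2-fold between MDS-L/CDA and MDS-L, where 1.97% of 16015 genes were higher, 2.64% lower and 4.61% either. The ratios of the measured genes ran from 0.699 for ALOX15B to 1.27 for LTC4S, and no fold can be given for PTGS2. With AZA, 3 of 8 genes differed: PTGS2 was 3.15-fold higher in MDS-L/CDA, LTC4S had a ratio of 0.425, and ALOX12 was at least 5.86-fold lower. Over all 16739 genes 5.43% were higher, 5.23% lower and 10.7% either. The count of 0 with vehicle is near the share over all genes, so nothing follows from it. Of the 3 genes called with AZA, ALOX12 had no ratio with vehicle and PTGS2 no fold. LTC4S alone could be compared in both, at 1.27 with vehicle and 0.425 with AZA. The side of 1 with vehicle depended on the scaling: the ratio was 0.885 with median scaling and 0.987 without scaling. The second PTGS1 probe, not counted for its gene, was beyond 2-fold with either treatment. LTC4S alone kept its call with normexp and ALOX12 alone with the Z score added, and 5 genes passed without scaling. For ALOX12 that score used the log2 ratio as read, -4.63, with a signal below background, and not the bound of -2.55.

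Markers of other blood cells were read on the same arrays. The summed scaled signal of the mast cell and basophil markers well above background was 51.2 with vehicle and 295.8 with AZA in MDS-L, and 28.7 and 96.2 in MDS-L/CDA, with 7, 7, 6 and 7 of 8 markers well above background. The eosinophil sum was 2.40 and 42.3 in MDS-L, and 0 and 0.531 in MDS-L/CDA, with 3, 4, 0 and 1 of 8 markers. In MDS-L/CDA this sum was PRG2 alone, which read 0.220 with vehicle, not well above background and so left out. Of the 3 markers well above background with vehicle in MDS-L, PRG2 and CLC had ratios of 95.6 and 22.7, and RNASE2 had 1.12. PRG3, EPX, IL5RA and CCR3 were well above background on no array. A sum adds different probes, so the brightest weigh most. The megakaryocyte and platelet sum was 14.4 and 60.1 in MDS-L, and 17.9 and 30.5 in MDS-L/CDA, with 4, 5, 3 and 4 of 10 markers, and the platelet marker PF4 was measured on none of the arrays. The progenitor sum lay between 118.5 and 150.0, although CD38, one of its markers, had a scaled signal of 23.5 with vehicle and 8.43 with AZA in MDS-L, a ratio of 0.359. The 3 sums were thus higher with AZA in both lines, the eosinophil sum in MDS-L/CDA by PRG2 alone. So were the monocyte and keratin sums given below, so the rise was not particular to these 3 lists. The neutrophil sum in MDS-L and the lymphoid sum in MDS-L/CDA were lower with AZA. ALOX5AP, LTC4S, PTGS1 and HPGDS also had ratios above 1 in both lines. PTGS2 had a ratio of 1.03 in MDS-L and was at least 2.88-fold higher in MDS-L/CDA. The brighter LTA4H probe in both lines, and ALOX15B in MDS-L, had ratios under 1. The part of these marker changes in the ratios of the enzymes was not tested, and in RNA from a whole culture more cells of a type and more RNA per cell cannot be told apart.

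Neutrophil, monocyte, lymphoid and tissue markers were also read. Of 5 neutrophil markers 2 were well above background on each array. They summed to 8.10 with vehicle and 4.69 with AZA in MDS-L, and to 1.17 and 1.26 in MDS-L/CDA. Of 7 monocyte and macrophage markers at most 2 were, summing to 0.595 and 1.16 in MDS-L, and to 0 and 0.983 in MDS-L/CDA. The lymphoid sum was 14.9 and 17.6 in MDS-L, and 16.4 and 16.1 in MDS-L/CDA. Of 8 fibroblast and epithelial markers the keratins KRT8 and KRT18 alone were measured. The keratins summed to 6.59 and 9.52 in MDS-L, and to 7.84 and 9.22 in MDS-L/CDA. The 2 ALOX5 probes were not well above background on the same arrays, and the reason was not tested.

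A list of 64 other eicosanoid genes, 63 of them on the array (PLA2G4B was not), shows the pathway around the 10. On all 4 arrays 33 were well above background, 7 on some and 23 on none. With AZA in MDS-L 8 of 40 were at least 2-fold higher and 4 at least 2-fold lower, and in MDS-L/CDA 4 of 36 were higher and none lower. Over all genes the shares were 6.73% higher and 6.03% lower in MDS-L, and 2.53% and 3.07% in MDS-L/CDA. For MDS-L the median over the list was -0.27 (log2), against -0.13 over all genes, and for MDS-L/CDA it was 0.15, against 0.02.

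Among the receptors, the role with the most genes on the array (16), 4 of 10 were at least 2-fold higher in MDS-L and 3 of 8 in MDS-L/CDA. Over all genes 6.73% were higher in MDS-L and 2.53% in MDS-L/CDA. In MDS-L, PTGER1, PTGIR and FPR2 were well above background only with AZA, and so was LTB4R in MDS-L/CDA. These receptors have a bound only through the array where they are high. The list was chosen with earlier results known, so nothing follows from these counts. PTGDR2, the receptor for prostaglandin D2 on eosinophils and basophils, had scaled signals of 1.13 and 7.70 in MDS-L and of 0.650 and 2.35 in MDS-L/CDA, ratios of 6.80 and 3.62. PTGIR, the prostacyclin receptor, was well above background on the MDS-L AZA array alone, at 3.07, and at least 16.2-fold higher. PTGER1, a receptor for prostaglandin E2, was at least 4.40-fold higher in MDS-L and at least 1.95-fold higher in MDS-L/CDA. FPR2, which also binds lipoxin A4, was at least 2.09-fold higher in MDS-L.

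Some receptors went opposite ways in the lines. PTGER4, another prostaglandin E2 receptor, had a ratio of 0.724 in MDS-L and 2.58 in MDS-L/CDA. LTB4R, the leukotriene B4 receptor, was at least 1.84-fold lower in MDS-L and at least 2.27-fold higher in MDS-L/CDA. It was dim, at 0.379 with vehicle and 0.206 with AZA in MDS-L, and 0.312 and 0.707 in MDS-L/CDA. The values of 0.206 and 0.312 were not well above background. CYSLTR1, the receptor for cysteinyl leukotrienes, was lower with AZA in both lines, with ratios of 0.518 and 0.832, and CYSLTR2 was not well above background.

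Of the genes that release or recycle arachidonic acid, ACSL4, which activates it for storage, had a ratio of 2.22 in MDS-L and 1.34 in MDS-L/CDA. DAGLB, a diacylglycerol lipase, had 0.467 and 0.966. PLA2G4A, the cytosolic phospholipase A2, had 0.586 and 0.888, short of 2-fold. In this group 1 of 9 genes was at least 2-fold higher and 1 lower in MDS-L, and none of 8 in MDS-L/CDA. Over all genes 6.73% were higher and 6.03% lower in MDS-L, and 2.53% and 3.07% in MDS-L/CDA. With so few genes in the group nothing follows from its counts.

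Prostanoid synthases other than the 10 included 1 lower gene of 7 in MDS-L, PTGES3, where 6.03% of all genes were lower. The probe for PTGES3, a prostaglandin E synthase and heat shock protein cochaperone, had a ratio of 0.189, against 0.629 in MDS-L/CDA. The array files place this probe on only 9 bases of genome, so what it reads is uncertain. Its scaled signal in MDS-L was 2.29 with vehicle and 0.433 with AZA. TBXAS1, thromboxane synthase, had 0.702 and 1.25. PTGES, the inducible prostaglandin E synthase, and PTGIS, prostacyclin synthase, were not well above background. Among breakdown enzymes HPGD, the 15-hydroxyprostaglandin dehydrogenase that inactivates prostaglandins, had ratios of 3.85 and 2.45. PTGR2, a prostaglandin reductase, had 0.419 and 1.01.

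MGST1, MGST2 and MGST3 belong to the same membrane protein family as LTC4S and ALOX5AP. Their ratios in MDS-L were 0.346, 1.16 and 0.560, so that none followed the ratio of 4.65 of LTC4S or of 4.50 of ALOX5AP. In MDS-L/CDA they were 0.736, 1.098 and 1.20. ABCC4, a transporter that exports prostaglandins and leukotrienes, had 2.41 in MDS-L and 0.591 in MDS-L/CDA, and ABCC1, which exports leukotriene C4, had 0.794 and 1.17. EPHX1, an epoxide hydrolase, had 2.06 and 1.53.

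**Figure D4:**
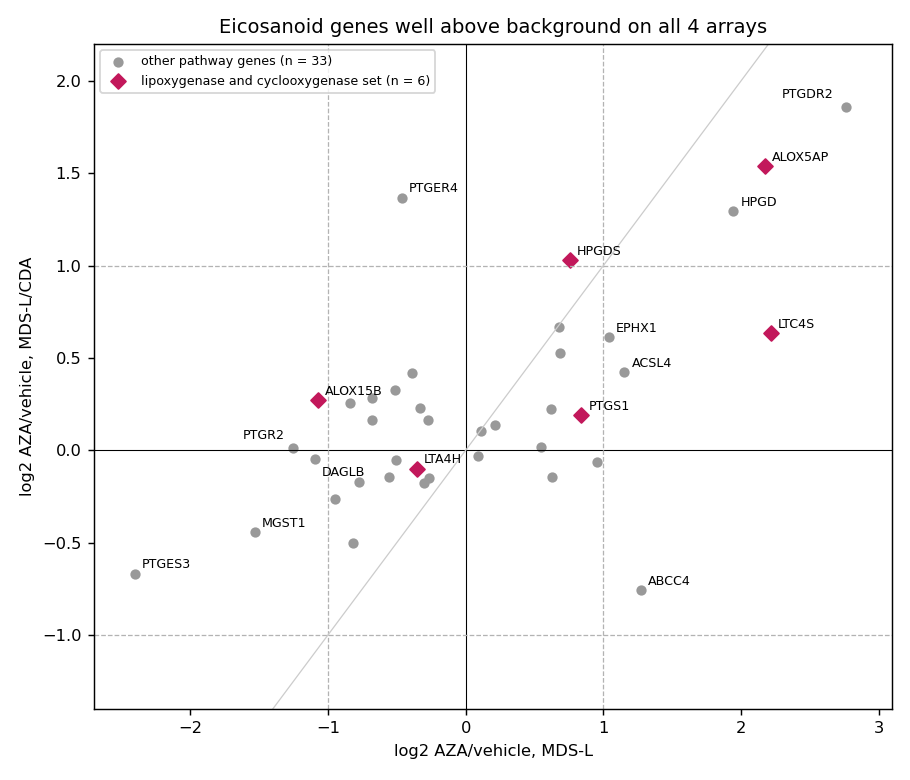
AZA/vehicle ratio (log2) in MDS-L (horizontal axis) and in MDS-L/CDA (vertical axis) for genes well above background on all 4 arrays, 6 of the set (red diamonds) and 33 other eicosanoid genes (grey); dashed lines mark 2-fold and the oblique line equal ratios. PTGDR2, ALOX5AP and HPGD lie beyond 2-fold in both lines, LTC4S only in MDS-L, and PTGER4 and ABCC4 lie on opposite sides of 0 in the lines.

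The ratios of ALOX5AP, LTC4S and HPGDS moved with the scaling but kept their direction in both lines. Over the 7 normalizations tried, main included, ALOX5AP lay between 3.01 and 5.12 in MDS-L and between 1.81 and 2.93 in MDS-L/CDA. LTC4S lay between 3.19 and 5.28 in MDS-L and between 1.33 and 1.57 in MDS-L/CDA. The bound on ALOX12 in MDS-L lay between 2.16 and 10.4. HPGDS lay between 1.16 and 2.01 in MDS-L and between 1.86 and 2.09 in MDS-L/CDA, across the 2-fold limit in both lines. PTGS2 in MDS-L changed sides of 1 in 3 of the alternatives, between 0.711 and 1.18.

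**Figure D5:**
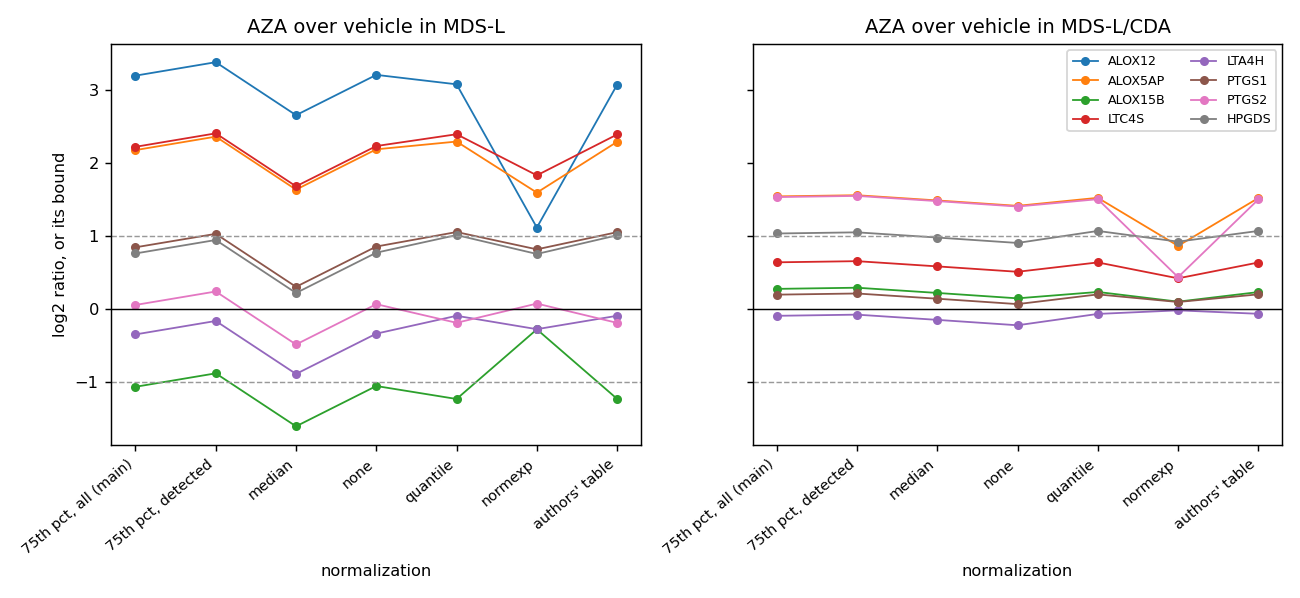
AZA/vehicle ratio or its bound (log2, vertical axis) of the 8 measured genes under 7 normalizations (horizontal axis), in MDS-L (left) and MDS-L/CDA (right); the points are joined to follow a gene and dashed lines mark 2-fold. ALOX12, ALOX5AP and LTC4S stay above 2-fold in MDS-L throughout, with ALOX12 lowest under normexp (1.11), and HPGDS and PTGS1 cross or touch the limit.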

How the data were processed

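Gene expression was measured in 4 samples, 1 per condition, on Agilent one-colour arrays. The authors deposited the scanner output of each array (Feature Extraction 10.7.1.1), whose processed signal is an intensity on a linear scale, background-subtracted within the array, and a value table of intensity normalized between arrays, used as an alternative. Their step from one to the other is not given in the sources used here. Of 58201 gene probes, 16 with outlier flags were left out. Signals were divided by the 75th percentile of their array. Where 1 array of a pair was not well above background, its signal was set to the higher of its own and the lowest signal well above background, which gives a bound. A gene is represented by its probe with the highest mean signal. Called means a ratio or bound of at least 2, a fold taken from the study's methods, whose Z score of 2 was an alternative. The formula of that score is not given in the sources used here, and the log2 ratio over its SD in 10 bins of mean signal was used. In this score signals not well above background entered as read, not as bounds. The calling step was tested on simulated data with the same background flags on every array. Only genes well above background were changed there, so the rule for bounds was not tested. The number of arrays limits the precision. Members, gene lists and comparisons were chosen with earlier results of these data known. Genes named are the members, the pathway genes called or typical of their role, and, chosen after their values were seen, neighbours of ALOX12 and the marker CD38. The genes nearest in pattern to ALOX12 and ALOX5AP are not named, since their distance compares levels of different probes. In all, 13 alternatives were tried. Python 3.11.15 with pandas 2.3.3, and R 4.3.3 with limma 3.58.1 (normexp), were used.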

Additional observations from a re-analysis of the deposited data

Results flagged for a closer look

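For 17 probes, 2 of the set and 15 of the other eicosanoid genes, the AZA/vehicle ratio or bound lay on opposite sides of 1 in the 2 lines, and with 1 array per condition the difference was not tested. Values are log2 ratios, and differences are MDS-L minus MDS-L/CDA. ALOX15B had -1.07 in MDS-L and 0.27 in MDS-L/CDA, a difference of -1.34. The dimmer LTA4H probe had -0.16 and 0.04, a difference of -0.20, within the spread between spots. Among receptors, PTGER4 had -0.47 and 1.37, a difference of -1.83, LTB4R had bounds of -0.88 and 1.18, which differ by -2.06, and LTB4R2 had bounds of -0.87 and 0.58, which differ by -1.45. Of the transporters, ABCC4 had 1.27 and -0.76, a difference of 2.03, and ABCC1 differed by -0.56. In 7 further genes the ratio was lower in MDS-L than in MDS-L/CDA, with differences of -1.26 for PTGR2, -1.09 for MGST3, -0.96 for CBR1, -0.84 for PTGES2, -0.84 for TBXAS1, -0.81 for GGT5 and -0.43 for GPX4. It was higher in MDS-L for PLA2G6, MBOAT7 and PTGDS, by 1.02, 0.77 and 0.12.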

How the results depend on the processing

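No paired analysis was possible because the labels carry no replicate numbers to pair by. A fit of AZA over both lines, with the line as a block, was not run. With 1 array per group none could be left out. Of 52 alternative counts of called genes, 44 stayed within 1.5 times the main count. In MDS-L/CDA (main 3 with AZA/vehicle) 0 were called with normexp at offset 50 and 0 at a fold of 3. Between the lines with vehicle (main 0) 1 was called with median scaling, ALOX15B, and 1 when any probe of a gene could count, PTGS1. Between the lines with AZA (main 3) 5 were called without scaling, 5 at a fold of 1.5, 1 with normexp and 1 with a Z score of 2. In MDS-L ALOX15B was not called with the percentile over detected probes, normexp, a fold of 3 or the Z score. The cause was not tested. Of 228 alternative ratios of single probes, 191 moved by less than 0.40 (log2), the SD of a ratio of 2 arrays at the highest spread between spots measured, 37 moved by more, and no called ratio changed sides of 1. Of the 38 main ratios or bounds behind them, 10 changed sides of 1 under at least 1 alternative. The median log2 ratio over all measured probes in MDS-L was -0.15, and -0.69 with median scaling, under which 4891 genes were called in place of 2191; with normexp it was 806. Among genes called in MDS-L, 52.7% were higher, against 70.6% with the percentile over detected probes and 11.5% with median scaling. In MDS-L/CDA it was 45.2%, against 29.0% without scaling and 26.6% with normexp. ALOX12 and PTGS2 were not well above background on at least 1 array, and ALOX15B stayed under a scaled signal of 1 on all 4.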
